A study of Homo sapiens with 36 samples.

Results

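The metallothionein genes MT1E, MT1F, MT1G, MT1M, MT1X, MT2A and MT3 were followed in human neural stem cells (hNSC) after activation or knockout of MEIS1 or MEIS2. The 7 genes were taken by symbol from the 28516 gene symbols in the deposited count table. RNA-seq was performed on a commercial hNSC line from 1 supplier, 48 h after infection with lentivirus, in 6 conditions with 6 libraries each. In the conditions MEIS1-OE (CRISPRa_MEIS1), MEIS2-OE (CRISPRa_MEIS2) and ctrl-OE (CRISPRa_ctrl), the cells received 3 viruses that carry a guide RNA, a Cas9 that does not cut fused to VP64, and a helper complex of further activation domains. In MEIS1-KO (CRISPR-KO_MEIS1), MEIS2-KO (CRISPR-KO_MEIS2) and ctrl-KO (CRISPR-KO_ctrl), a single lentiviral vector carried cutting Cas9 and the guide. In MEIS1-KO and MEIS2-KO, viruses with different guides against the same gene were mixed, and no such mix is described for ctrl-KO. Non-targeting guides served as controls in ctrl-OE and ctrl-KO. No isolation of clones is described. The labels number the replicates but do not say whether they were separate cultures, so p-values measure only the spread between these libraries, which may be technical.

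Metallothioneins are small proteins, rich in cysteine, that bind zinc and copper and also take up toxic metals such as cadmium. Free zinc activates the transcription factor MTF1, which binds metal response elements in the promoters of the MT1 and MT2 genes and raises their transcription, and glucocorticoids and oxidative stress can raise them as well. In the brain, MT1 and MT2 proteins are best known from astrocytes, whereas MT3 is a form typical of the nervous system that was first described as an inhibitor of neurite growth.

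All 7 genes lie in the metallothionein cluster on chromosome 16, and positions are given on GRCh37 with the GENCODE annotation. MT3 spans 56622986 to 56625000, MT2A 56642496 to 56643409, MT1E 56659387 to 56661024, MT1M 56666571 to 56667893, MT1F 56691643 to 56694610 and MT1X 56716382 to 56718108, all on the plus strand. MT1G spans 56700642 to 56701977 on the minus strand. Because the genes are similar, stretches of 100 bases, the length of a read, were compared with the genome: of the stretches in MT1E transcripts, 2.44% (28 of 1148) had an exact match elsewhere, and for the other 6 genes the share was 0%. A stretch across an exon junction cannot match another gene with introns in the genome, and matches with mismatches were not searched. Reads shared between these genes are therefore not excluded. MT1X also overlaps a long non-coding RNA gene, ENSG00000259827, on the same strand, so its count depends on how the authors' annotation treated shared reads.

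The bases before the transcription start are shown for MT2A and MT1X, the members with the most reads, and for their neighbour MT1H, for which no read was counted. The sequences are RefSeq promoters of GRCh38.p14, restricted to the 250 bases before the start, and each was found 1 time on chromosome 16 of GRCh37, at chr16:56642246-56642495 (MT2A), chr16:56716132-56716381 (MT1X) and chr16:56703476-56703725 (MT1H), on the plus strand. Capitals mark the core of the metal response element, searched as TGCACNC and TGCGCNC on both strands.
MT2A: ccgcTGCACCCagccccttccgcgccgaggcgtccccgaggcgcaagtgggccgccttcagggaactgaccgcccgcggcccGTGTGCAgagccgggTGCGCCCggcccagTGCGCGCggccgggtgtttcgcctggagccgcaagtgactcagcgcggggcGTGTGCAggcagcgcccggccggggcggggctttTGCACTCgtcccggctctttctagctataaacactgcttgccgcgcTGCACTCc
MT1X: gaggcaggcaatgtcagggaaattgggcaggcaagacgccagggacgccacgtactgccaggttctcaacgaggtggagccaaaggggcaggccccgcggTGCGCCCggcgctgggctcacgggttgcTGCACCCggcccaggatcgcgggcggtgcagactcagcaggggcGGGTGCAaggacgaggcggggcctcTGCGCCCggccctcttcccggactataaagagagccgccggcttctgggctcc
MT1H: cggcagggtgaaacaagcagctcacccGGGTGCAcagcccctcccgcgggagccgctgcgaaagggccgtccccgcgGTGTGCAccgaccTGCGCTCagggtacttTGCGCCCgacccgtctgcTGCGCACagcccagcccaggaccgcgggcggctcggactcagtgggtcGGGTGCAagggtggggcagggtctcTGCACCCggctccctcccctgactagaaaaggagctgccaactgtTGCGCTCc

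The MT2A window held 7 cores, of which the one nearest to the start began 8 bases before it and the farthest 246 bases before it. The MT1X window held 4 cores, at 150, 122, 78 and 53 bases before the start. These numbers are large among promoters in general, which were not matched for base composition. G and C made up 73.2% of the MT2A window and 70% of the MT1X window, and the cores are themselves rich in these bases. Of 35116 promoter windows of the same length, 24.8% held at least 1 core, 0.37% held at least 4 and 0.0313% held at least 7. Among the 5 metallothionein genes with a promoter entry, the number of cores did not follow the read count. The MT1H window held 8 cores (at least 8 in 0.0171% of windows) while MT1H was listed at 0 in all 36 libraries. Whether reads of MT1H match other genes was not examined. MT1B and MT4, which also had no reads, had 3 cores each. A match of these letters is a description of the sequence and does not show that a factor binds there.

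**Figure D1:**
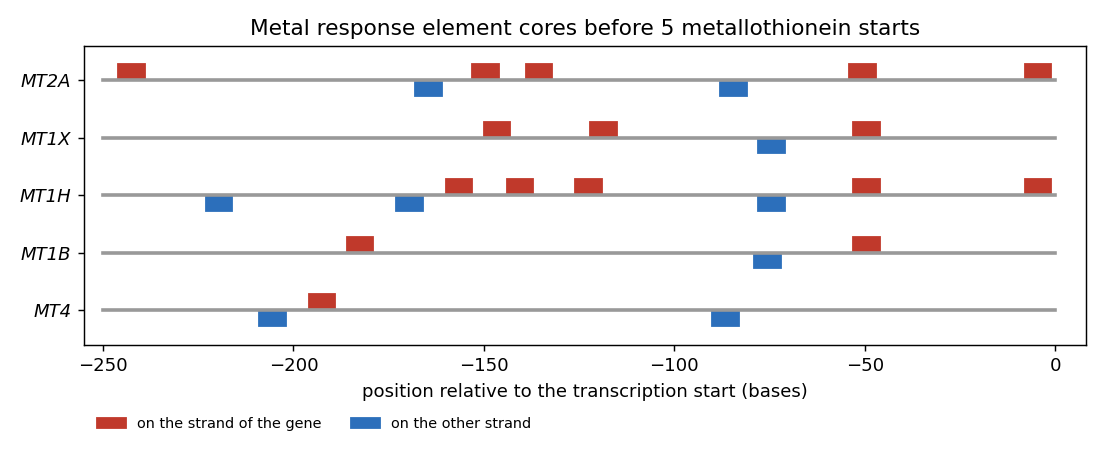
Positions of metal response element cores in the 250 bases before the transcription start of 5 metallothionein genes, with the distance from the start in bases on the x axis and 1 line per gene (red boxes, core on the strand of the gene; blue boxes, core on the other strand). MT2A has 7 cores and MT1X 4, while MT1H has 8 and was listed at 0 counts.

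The libraries held 15429985 to 22940493 counts on genes. MEIS1 reached 287 to 323 CPM (counts divided by the TMM-scaled library size) in MEIS1-OE against 15.7 to 18.8 CPM in ctrl-OE, and 6.43 to 11.2 CPM in MEIS1-KO against 23.7 to 28.01 CPM in ctrl-KO. MEIS2 reached 793 to 852 CPM in MEIS2-OE against 20.5 to 24.1 CPM in ctrl-OE, and 10.5 to 13.4 CPM in MEIS2-KO against 23.5 to 27.4 CPM in ctrl-KO, so the targeted genes followed the labels. All 7 markers of neural stem cells on the list (NES, SOX2, SOX1, PAX6, VIM, MSI1 and FABP7) had reads in every condition, with a summed level of 2852 to 5937 CPM, whereas the pluripotency markers POU5F1 and NANOG together reached at most 0.372 CPM. The 3 mesenchymal and endothelial markers summed to 95.6 to 204 CPM. The 4 oligodendrocyte markers summed to 23.6 to 37.5 CPM and the 3 microglia markers to 0.682 to 2.27 CPM. Of the 5 astrocyte markers, GJA1 had condition means of 108 to 285 CPM and S100B of 1.36 to 3.86 CPM, and AQP4, GFAP and ALDH1L1 averaged at most 1.20, 0.330 and 0.101 CPM. Of the 5 neuron markers, MAP2 had condition means of 241 to 756 CPM, TUBB3 of 158 to 219 CPM and SYT1 of 32.3 to 54.6 CPM, and DCX and RBFOX3 averaged at most 0.894 and 0.0175 CPM.

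Metallothionein mRNA was scarce in these cells, and MT2A supplied most of it. Over all 36 libraries the 7 genes received 3441 counts, of which 77.1% were on MT2A (2652 counts) and 19.1% on MT1X (656 counts). These members were counted in 36 of 36 libraries. MT1E (65 counts) and MT1F (50 counts) were counted in 20 libraries each, MT3 (9 counts) in 8, MT1M (6 counts) in 4 and MT1G (3 counts) in 3. Genes with at least 10 counts over all libraries were tested, which kept 4 of the 7 members and 19689 genes in all. MT1M, MT1G and MT3 did not pass this filter and are described by their counts.

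Of 14 other metallothionein genes and pseudogenes on the list, 9 were in the table and none passed the filter. MT1A and MT1L had 3 counts each, and MT1B, MT1H, MT1HL1, MT1JP, MT1DP, MT1IP and MT4 were listed at 0.

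MT2A, which encodes the most widely expressed human metallothionein, had overlapping levels in all conditions. Its lowest, median and highest CPM were 2.59, 3.16 and 4.64 in ctrl-OE, 2.11, 3.56 and 4.41 in MEIS1-OE, and 2.24, 3.33 and 4.32 in MEIS2-OE. In ctrl-KO they were 3.15, 3.46 and 5.36, in MEIS1-KO 2.36, 3.44 and 6.36, and in MEIS2-KO 3.38, 4.01 and 4.56. The ranges of the 6 conditions all overlapped. In decreasing order the means were 4.04 ± 0.462 CPM (SD, n = 6 libraries) in MEIS2-KO, 3.92 ± 0.944 in ctrl-KO, 3.85 ± 1.36 in MEIS1-KO, 3.51 ± 0.7997 in MEIS1-OE, 3.32 ± 0.901 in MEIS2-OE and 3.28 ± 0.714 in ctrl-OE, and none of the pairs of conditions compared passed the test across all genes.

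MT1X, an MT1 isoform, had a higher level in activation than in knockout libraries. Its lowest, median and highest counts were 19, 24.5 and 31 in ctrl-OE, 26, 36 and 43 in MEIS1-OE, and 20, 26.5 and 30 in MEIS2-OE. They were 4, 8 and 15 in ctrl-KO, 4, 7.5 and 10 in MEIS1-KO, and 2, 9 and 14 in MEIS2-KO. Each of the 18 activation libraries lay above each of the 18 knockout libraries, with 0.889 CPM as the lowest activation value and 0.720 CPM as the highest knockout value. How many of all genes separate groups without overlap was not counted, here or below, so such separation is a description. In ctrl-OE against ctrl-KO, 51.4% of all tested genes passed the test. The means in decreasing order were 1.67 ± 0.257 CPM (SD, n = 6 libraries) in MEIS1-OE, 1.23 ± 0.186 in MEIS2-OE, 1.09 ± 0.192 in ctrl-OE, 0.451 ± 0.199 in ctrl-KO, 0.418 ± 0.198 in MEIS2-KO and 0.389 ± 0.132 in MEIS1-KO. Of the neighbours in this order, ctrl-OE and ctrl-KO passed the test across all genes and the other neighbours did not pass it.

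Levels of different genes were compared per kilobase of the first annotated transcript, which is 401 bases for MT2A and 404 bases for MT1X. On this scale MT2A had a mean of 8.18 to 10.1 CPM per kilobase over the conditions, and MT1X 0.963 to 4.15. The MT1 genes with fewer reads, MT1E (704 bases) and MT1F (425 bases), stayed at or below 0.304 and 0.339 CPM per kilobase.

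**Figure D2:**
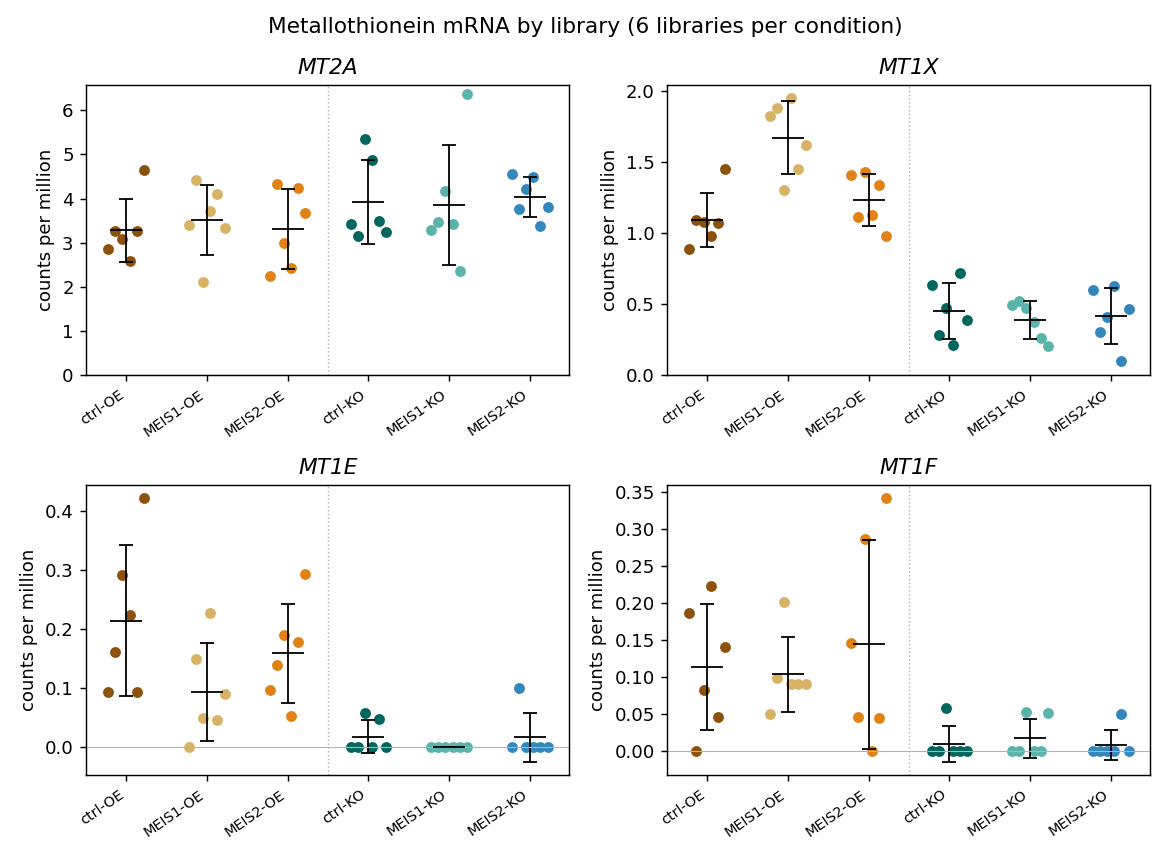
CPM (y axis) of MT2A, MT1X, MT1E and MT1F in each library, by condition (points, 6 libraries per condition; horizontal line and bars, mean ± SD). The MT2A values of all conditions overlap, whereas every activation library lies above every knockout library for MT1X, from 0.889 CPM upward against at most 0.720 CPM.

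The comparison of the control conditions asks what the choice of CRISPR system does without a MEIS guide. Of the 4 tested members, 3 were higher in ctrl-OE than in ctrl-KO (MT1X, MT1E and MT1F) and MT2A did not pass the test. MT1E and MT1F passed the filter on low counts through the activation libraries, which hold 61 of 65 and 46 of 50 of their counts, so the number of members called is a description. This comparison called a large part of the transcriptome, with 51.4% of all tested genes at an adjusted p under 0.05 (27.5% higher and 23.9% lower in ctrl-OE). The systems differ in the vectors, the number and volume of viruses and the form of Cas9, and these cannot be told apart. In bulk RNA, fewer cells of a type and less RNA per cell cannot be told apart either.

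For MT1X, 148 counts were found in the 6 ctrl-OE libraries and 51 in the 6 ctrl-KO libraries. The log2(fold change) was 1.26 (SE 0.24, adjusted p = 2.6e-05 in edgeR, quasi-likelihood test, adjusted by Benjamini-Hochberg), and the groups did not overlap. The ratio of the counts, corrected for library size, was 2.42 with an exact 95% interval of 1.75 to 3.39, which covers counting error only, as do all intervals of counts given here. MT1X was thus the member with the most reads that changed between the systems.

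MT1E, another MT1 isoform, had 4, 7, 2, 5, 2 and 9 counts in single ctrl-OE libraries, whereas 4 of the 6 ctrl-KO libraries had none and the other 2 had 1 count each. In CPM the groups did not overlap. The ratio of 29 to 2 counts was 12.1 (interval 3.05 to 104), and edgeR gave an adjusted p of 4.2e-04. MT1F, also of the MT1 family, had 15 counts in ctrl-OE, with 1 library at 0, and 1 count in ctrl-KO. The ratio was 12.5 (interval 1.92 to 525.5, edgeR adjusted p = 0.0077), and 4 of 6 ctrl-OE libraries lay above all ctrl-KO libraries. The upper bounds show that the size of both differences is poorly known at this depth.

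MT2A had 443 counts in ctrl-OE and 439 in ctrl-KO, with a log2(fold change) of -0.25 (95% interval -0.64 to 0.13, edgeR adjusted p = 0.274). The ratio of counts was 0.840 with a counting interval of 0.734 to 0.960, so the difference exceeded counting error but not the spread between libraries.

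The 3 members below the filter had few reads in either system. MT3 had 5 counts in 4 ctrl-OE libraries and 0 in ctrl-KO, a ratio of 1.39 when ctrl-KO is set to 3 counts over the group. Such a ratio leaves out the counting error of the group with reads, so it is no lower bound. With no filter on low counts, MT3 had an adjusted p of 0.0337 in edgeR. MT1M had 4 counts in ctrl-OE and 0 in ctrl-KO (ratio 1.11 against 3 counts, edgeR adjusted p = 0.0760 with no filter). MT1G had 0 and 1 counts, which allows no fold.

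The same pairs of systems with MEIS guides were compared after the values of the controls had been seen, and in them the targeted MEIS gene differs together with the system. In MEIS1-OE against MEIS1-KO, 51.9% of all tested genes passed (28.2% higher), among them MT1X, MT1E and MT1F, all higher in MEIS1-OE. As said for the controls, MT1E and MT1F passed the filter on low counts through the activation libraries, so their calls are a description. MT1X had 211 against 43 counts, with no overlap and a log2(fold change) of 2.10 (SE 0.23, edgeR adjusted p = 7.2e-10). MT1E had 12 counts against 0, a ratio of 3.54 when MEIS1-KO is set to 3 counts over the group (edgeR adjusted p = 0.0028). MEIS1-OE held 1 library at 0 as well. MT1F had 13 against 2 counts, a ratio of 5.75 (interval 1.30 to 52.5, edgeR adjusted p = 0.033), and this call was lost with DESeq2 (adjusted p = 0.052) and, in edgeR, without MEIS1-KO replicate 1 (0.061), 2 (0.067), 4 (0.066) or 5 (0.067) or without MEIS1-OE replicate 3 (0.080).

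In MEIS2-OE against MEIS2-KO, 49.2% of all tested genes passed (26.7% higher), again with MT1X, MT1E and MT1F higher in the activation condition. The limit set by the filter on low counts holds for the calls of MT1E and MT1F here too. MT1X had 154 against 49 counts, with no overlap and a log2(fold change) of 1.56 (SE 0.24, edgeR adjusted p = 7.1e-07). MT1E had 20 against 2 counts (ratio 9.52, interval 2.31 to 84.0, edgeR adjusted p = 0.0027), and MT1F 18 against 1 (ratio 17.1, interval 2.704 to 714, edgeR adjusted p = 0.0017). For both genes the groups overlapped. MT2A did not pass in either comparison, with log2(fold changes) of -0.13 (95% interval -0.52 to 0.25) and -0.27 (-0.66 to 0.11).

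Summed over the 18 libraries of each system, MT2A had 1304 counts under activation and 1348 under knockout, a ratio of 0.859 after correction for library size (counting interval 0.795 to 0.928). MT1X had 513 and 143 counts, a ratio of 3.19 (2.64 to 3.86). MT1E had 61 and 4 counts, in 17 and 3 libraries, and MT1F had 46 and 4 counts, in 16 and 4 libraries. All 9 counts of MT3, the nervous system form, and all 6 counts of MT1M fell into activation libraries. With 3 counts set for the knockout libraries, the ratios were 2.66 and 1.78, again without the counting error of the activation sums. MT1G had 1 and 2 counts. These sums join conditions with different guides and are a description.

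**Figure D3:**
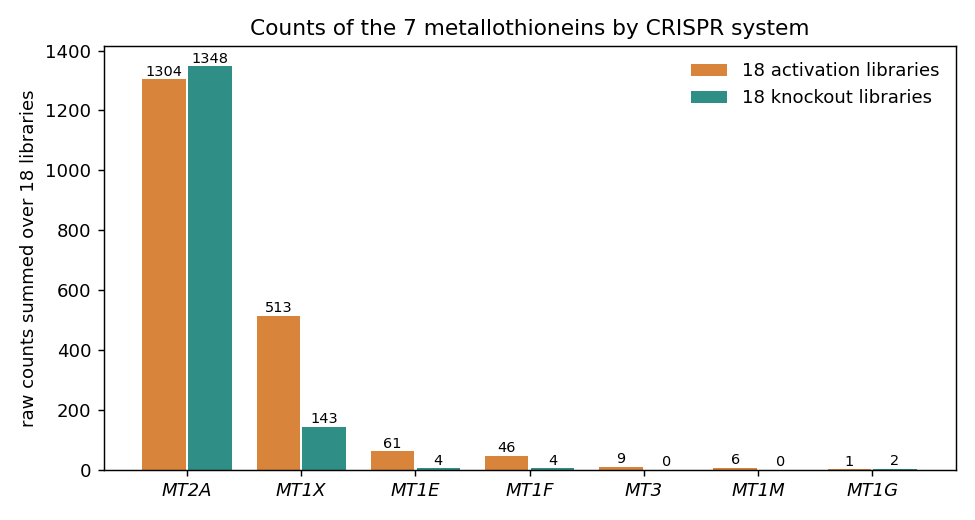
Raw counts (y axis) of the 7 metallothionein genes summed over the 18 activation libraries (orange) and the 18 knockout libraries (green). MT2A has 1304 and 1348 counts, MT1X has 513 and 143, and the 9 counts of MT3 and 6 counts of MT1M are all from activation libraries.

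The ratio of MT1X to MT2A counts within a library does not depend on library size. It ranged from 0.311 to 0.379 in ctrl-OE, from 0.356 to 0.619 in MEIS1-OE and from 0.258 to 0.630 in MEIS2-OE. It ranged from 0.0430 to 0.205 in ctrl-KO, from 0.0323 to 0.152 in MEIS1-KO and from 0.0299 to 0.140 in MEIS2-KO. The lowest activation library (0.258) thus lay above the highest knockout library (0.205), and the composition of metallothionein mRNA differed between the systems in all 3 pairs of conditions.

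Marker levels of the cells moved with the system too. The summed level of the 7 neural stem cell markers was 2852 to 4124 CPM in activation and 4296 to 5937 CPM in knockout libraries, and in ctrl-OE against ctrl-KO 7 of 7 were lower. The 5 astrocyte markers summed to 104 to 147 CPM and 227 to 330 CPM, with 3 lower and 1 higher in ctrl-OE. The 5 neuron markers summed to 404 to 585 CPM and 808 to 1034 CPM, with 3 of the 4 tested lower in ctrl-OE. Of all tested genes, 23.9% were lower and 27.5% higher in ctrl-OE than in ctrl-KO. RBFOX3 was at 0 in MEIS1-OE, and MOG averaged at most 0.0247 CPM in every condition. The part of these differences in the metallothionein result was not tested.

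MEIS1 activation was compared with ctrl-OE to ask which genes follow a raised MEIS1 level. Of the 4 tested members, MT1X was higher in MEIS1-OE and the other 3 did not pass, against 9.09% of all tested genes (5.52% higher). MT1X had 211 counts in MEIS1-OE and 148 in ctrl-OE, a log2(fold change) of 0.61 (SE 0.18, edgeR adjusted p = 0.028). The groups overlapped, with 5 of 6 MEIS1-OE libraries above all ctrl-OE libraries. The call was lost without ctrl-OE replicate 1 (adjusted p = 0.071) or 4 (0.063) and without MEIS1-OE replicate 1 (0.057), 2 (0.067) or 4 (0.075), all with edgeR, while the log2(fold change) stayed between 0.56 and 0.70.

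MT1E had 12 counts in MEIS1-OE and 29 in ctrl-OE, a log2(fold change) of -1.12 (SE 0.52, unadjusted p = 0.037 and adjusted p = 0.207 in edgeR's test across all genes), with 4 of 6 MEIS1-OE libraries below all ctrl-OE libraries. MT1F (13 and 15 counts) and MT2A (444 and 443 counts) had log2(fold changes) of -0.10 (95% interval -1.29 to 1.09) and 0.10 (-0.28 to 0.48). MT3 had 1 and 5 counts (ratio 0.215, interval 0.0045 to 1.92) and MT1M 1 and 4 (ratio 0.269, interval 0.0055 to 2.72), so a difference was not detectable at this depth.

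MEIS2-OE was compared with the same ctrl-OE libraries. In that comparison 0 of the 4 tested members passed, both in edgeR and in DESeq2, 0 had an unadjusted p under 0.05, and 1.35% of all tested genes passed. MT1X had a log2(fold change) of 0.18 (95% interval -0.22 to 0.57), MT2A of 0.02 (-0.36 to 0.41), MT1E of -0.40 (-1.35 to 0.54) and MT1F of 0.36 (-0.75 to 1.47). The direct difference of MT1X between MEIS1-OE and MEIS2-OE was 0.44 (SE 0.18, unadjusted p = 0.023 and adjusted p = 0.171 in edgeR's test across all genes), with 5 of 6 MEIS1-OE libraries above all MEIS2-OE libraries. No member passed in that direct comparison in edgeR or DESeq2, against 7.75% of all tested genes, and MT1X was the 1 member with an unadjusted p under 0.05.

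The knockouts were compared with ctrl-KO, and 0 members passed in either, in edgeR or in DESeq2, with 0 at an unadjusted p under 0.05. Of all tested genes, 1.46% passed in MEIS1-KO and 10% in MEIS2-KO. MT1X had log2(fold changes) of -0.23 (95% interval -0.84 to 0.39) and -0.13 (-0.72 to 0.47), and MT2A of -0.02 (-0.40 to 0.37) and 0.04 (-0.34 to 0.42). With 43 to 51 MT1X counts per condition, the MT1X intervals were wide. MT1E had 0 counts in MEIS1-KO and 2 in MEIS2-KO and ctrl-KO, MT1F had 2, 1 and 1, and no fold can be read from these. Between MEIS1-KO and MEIS2-KO, 0 members passed with both tools, 0 had an unadjusted p under 0.05, and 0.0152% of all tested genes passed.

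The MEIS1 contrast subtracts the knockout effect from the activation effect and so combines both manipulations of MEIS1. MT1X had a value of 0.84 on the log2 scale (SE 0.36, unadjusted p = 0.024 and adjusted p = 0.262 in edgeR's test across all genes), and MT2A of 0.12 (95% interval -0.42 to 0.66). No member passed in edgeR or DESeq2, 1 had an unadjusted p under 0.05, and 3.48% of all tested genes passed. In the MEIS2 contrast, MT1X had 0.30 (95% interval -0.41 to 1.02) and MT2A -0.02 (-0.56 to 0.52). There 0 members passed with both tools, 0 had an unadjusted p under 0.05, and 2.56% of all tested genes passed.

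**Figure D4:**
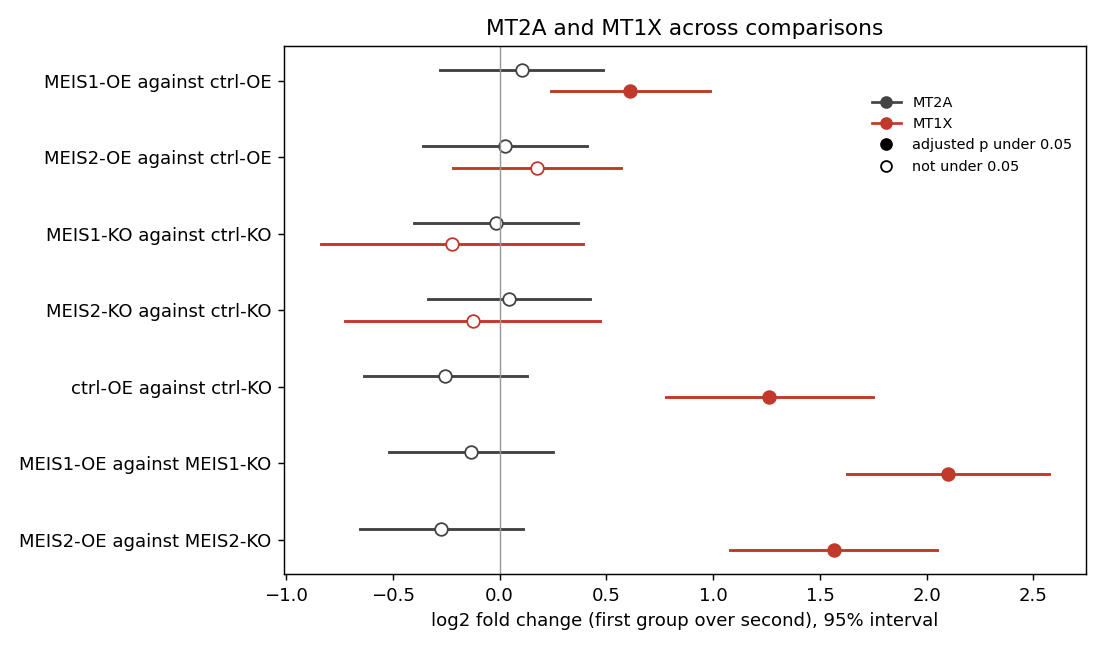
Log2(fold change) with 95% interval (x axis) of MT2A (grey) and MT1X (red) in 7 comparisons (filled circles, adjusted p under 0.05 by edgeR; open circles, not under 0.05). MT2A does not pass in any of them, while MT1X passes in MEIS1-OE against ctrl-OE (0.61) and in the 3 comparisons of activation with knockout (1.26, 2.10 and 1.56).

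The other genes of metal handling were read from lists of transporters and regulators. MTF1, the zinc sensor that drives metallothionein transcription, had 32.5 ± 2.45 CPM (SD, n = 6) in ctrl-OE and 26.0 ± 1.24 in ctrl-KO, with ranges that did not overlap. Its log2(fold change) was 0.32 (SE 0.07, edgeR adjusted p = 1.5e-04), and 0.42 and 0.35 in the MEIS1 and MEIS2 pairs of systems (edgeR adjusted p = 2.5e-06 and 6.1e-05). It did not pass in any comparison of a MEIS condition with its control, where it lay between -0.07 and 0.06. Of the 6 regulators on the list, 3 were higher and 2 lower in ctrl-OE than in ctrl-KO, including the glucocorticoid receptor gene NR3C1 (0.21) among the higher and SP1 (-0.11) and STAT3 (-0.08) as the lower ones.

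SLC30A1 encodes the zinc exporter of the plasma membrane, itself a known target of MTF1, and it had overlapping ranges in ctrl-OE and ctrl-KO. It had 13.3 ± 1.76 CPM (SD, n = 6) in ctrl-OE and 12.3 ± 1.06 in ctrl-KO, with a log2(fold change) of 0.11 (95% interval -0.11 to 0.32). Over all comparisons its estimates ran from -0.05 to 0.13 and none passed.

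Of the 10 zinc exporters (SLC30 family, which move zinc out of the cytosol), 3 were higher and 3 lower in ctrl-OE than in ctrl-KO, with a list median of 0.00 against 0.05 for all tested genes. SLC30A3, which loads zinc into synaptic vesicles, had 0.447 ± 0.154 CPM in ctrl-OE and 0.0612 ± 0.0529 in ctrl-KO, a log2(fold change) of 2.74 (SE 0.50, edgeR adjusted p = 1.2e-05). SLC30A4 (1.66) and SLC30A5 (0.47) were also higher, and SLC30A10, known mainly as a manganese exporter, was lower (-1.80). Of the 13 tested zinc importers (SLC39 family), 6 were higher and 4 lower, with a median of 0.36. SLC39A14 was higher (0.63), and SLC39A10 (-0.67), SLC39A6 (-0.36) and SLC39A7 (-0.33) were lower. The zinc transporters thus did not move in 1 direction.

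Of 12 genes of copper handling, 7 were higher and 1 lower in ctrl-OE than in ctrl-KO (median 0.20). The copper transporter gene SLC31A2 (1.19) and the copper chaperone genes COX17 (0.51) and ATOX1 (0.39) were higher, and CP, which encodes the copper protein ceruloplasmin, was lower in ctrl-OE, with 10.9 ± 1.58 against 32.3 ± 2.17 CPM (log2(fold change) -1.56, edgeR adjusted p = 2.1e-16). Of 14 targets of the oxidative stress factor NRF2, 3 were higher and 6 lower (median -0.03). HMOX1, the inducible heme oxygenase gene, was higher (1.51), while TXNRD1 (-0.42), SLC7A11 (-0.84) and FTH1 (-0.33) were lower. Of 9 genes induced by glucocorticoids, 4 were higher, among them KLF9 (1.13), PER1 (0.57) and TSC22D3 (0.43), and 2 were lower, among them ZBTB16 (-1.21), with a median of 0.16. Of 8 genes that flank the metallothionein cluster, 2 were higher, among them HERPUD1 (0.37), and NUP93 (-0.41) and NUDT21 (-0.32) were lower, so the flanking genes did not share 1 direction.

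In ctrl-OE against ctrl-KO, 48 of the 72 tested genes of these lists passed, where 51.4% of all tested genes did. In MEIS1-OE against ctrl-OE, 11 of the 72 passed, where 9.09% of all tested genes did, and the genes that follow are from MEIS1-OE. SLC30A3 was higher in MEIS1-OE than in ctrl-OE, at 1.67 ± 0.407 against 0.447 ± 0.154 CPM (log2(fold change) 1.88, SE 0.25, edgeR adjusted p = 4.0e-07), as the 1 passing gene of 10 zinc exporters. SLC30A3 was also higher in MEIS1-OE than in MEIS2-OE (0.99, edgeR adjusted p = 0.0026). Against ctrl-OE again, SLC39A10 (0.21) and SLC39A7 (0.12) of 13 zinc importers were higher in MEIS1-OE and none was lower. Of 12 copper genes, ATP7B (-0.22) and SLC31A2 (-0.39) were lower, and 0 of the 6 regulators passed in edgeR or DESeq2, with 1 at an unadjusted p under 0.05. Of the 9 glucocorticoid-induced genes, PER1 (0.90) and TSC22D3 (0.42) were higher, and of the 14 NRF2 targets OSGIN1 (0.80) was higher and NQO1 (-0.16) lower. Of the 8 flanking genes, 2 were higher, among them HERPUD1 (0.28), and none was lower.

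In MEIS2-OE against ctrl-OE, 0 of the 72 tested genes of these lists passed in edgeR or DESeq2, and 7 had an unadjusted p under 0.05. In MEIS1-KO against ctrl-KO, the NRF2 target NQO1 (0.19) was the 1 gene that passed in edgeR, while 2 passed in DESeq2. In MEIS2-KO against ctrl-KO, 8 of the 72 passed in edgeR, where 10% of all tested genes did, and 9 passed in DESeq2. The NRF2 targets FTL (0.26), NQO1 (0.19) and HMOX1 (0.48) were higher, with STAT3 (0.10). SP1 (-0.21), FKBP5 (-0.14), ATP7A (-0.27) and NUDT21 (-0.20) were lower. Of the 23 tested zinc transporters, 0 passed in either knockout in edgeR or DESeq2, with 1 in MEIS1-KO and 3 in MEIS2-KO at an unadjusted p under 0.05.

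Within conditions, no common variation of MT2A and MT1X was detectable at the depth of MT1X. Deviations of log2 CPM from the mean of the condition had a Pearson r of 0.0968 between them over 36 libraries (Spearman rho 0.173), which is a description, since the points share the depth of their library. MT2A deviated with a large block of genes. Among 13463 genes with a mean of at least 1 CPM, 1069 had r above 0.8 with MT2A and 102 had r below -0.8. The most alike were GPR162 (r = 0.916, rho = 0.899, and r = 0.886 without the 2 libraries farthest from the median), CHCHD5 (0.909) and ASL (0.896).

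The first principal component of all within-condition deviations held 40.7% of their variance, and MT2A had r = 0.857 with it, MT1E 0.236, MT1F 0.0580 and MT1X 0.0329. The spread of MT2A between libraries therefore went along with a difference shared by many genes. MT1X had 2 to 43 counts per library, and counting noise at this depth lowers any correlation, so the low values of MT1X, MT1E and MT1F do not show that they lack this difference. What sets this component was not tested. The genes most like MT1X were AFMID (r = 0.586), RBFA (0.532) and HAUS4 (0.531), and 0 genes exceeded 0.8. For MT3 they were FAM86C2P (0.571), HSF2BP (0.565) and AK094343 (0.515), which with 9 counts of MT3 is no finding.

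**Figure D5:**
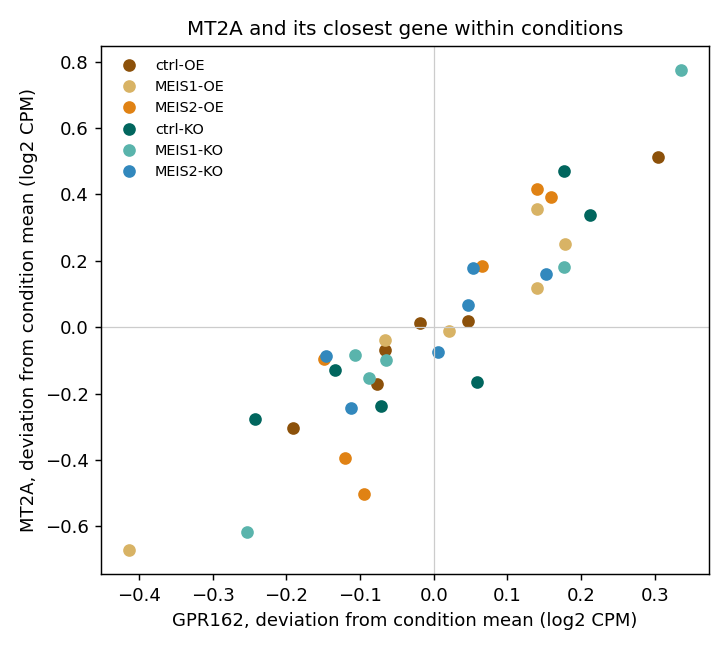
Deviation of MT2A (y axis) and GPR162 (x axis) from the mean of their condition in log2 CPM, with 1 point per library (36 libraries, coloured by condition). The points run along 1 line in all conditions (r = 0.916), and GPR162 is the closest of 13463 genes, chosen for this likeness.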

How the data were processed

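The authors prepared stranded poly-A libraries from hNSC, sequenced them as read pairs of 100 bases and aligned the reads to hg19 with STAR (2.7.0a in the submitters' processing notes, which also name Trimmomatic 0.39; the study's methods give another STAR version). Reads on genes were counted with HTSeq, and the deposited counts are raw numbers per gene symbol. The annotation and the strand setting for counting are not given in the sources used here.

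Samples were grouped by their GEO labels (6 groups, 36 libraries, 15429985 to 22940493 counts each). All genes with at least 10 counts over all libraries (19689 of 28516) were fitted together with edgeR 4.0.16 (limma 3.58.1, R 4.3.3): TMM normalization, 1 model of 6 groups, two-sided quasi-likelihood tests and Benjamini-Hochberg adjustment over all tested genes, with a threshold of 0.05. This replaced DESeq2, which the study used and which was run here as an alternative (1.42.0). The procedure was tested on simulated data. CPM use TMM library sizes. Intervals of count ratios are exact binomial (95%) and cover counting error only, since no molecular identifiers were used. The floor of 3 counts over a group for genes at 0 allows for the counting error of that group alone.

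The 7 members and all lists were chosen with earlier results of these data known. Named are all members, MTF1, SLC30A1, MEIS1 and MEIS2, at most 4 passing genes with the smallest p per list and comparison, and the 3 genes most like MT2A, MT1X and MT3. The values of 1 listed gene are not reported here. Markers of astrocytes and neurons and MOG were named after their values were seen. MEIS1-OE against MEIS1-KO and MEIS2-OE against MEIS2-KO were added after the data were seen.

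The mean correlation of deviations between same-numbered libraries was 0.0993 (46 of 90 pairs above 0.1), against -0.0210 for others. Pairing by replicate number was thus neither shown nor excluded, and the main model did not use it. No libraries of a group agreed within sampling noise (chi-square per degree of freedom 2.63 to 36.0). Promoters came from RefSeq (GRCh38.p14), where MT2A and MT1X were found among the 7 members, and positions from GENCODE lifted to GRCh37. MT1E, MT1F, MT1G, MT1M and MT3 had no entry. Intervals, promoter searches and figures were made in Python 3.11.15 (scipy 1.17.1, pandas 2.3.3, matplotlib 3.10.9). Alternatives were RLE size factors, filterByExpr, no filter, a prior count of 2 in place of 0.125, the replicate block, only the groups compared, each library left out and DESeq2.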

Additional observations from a re-analysis of the deposited data

Results flagged for a closer look

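In 12 of 32 sets of 6 libraries, the highest library lay far from the others, by a gap to the nearest library above 0.625 of the range (Dixon's test). Chance flags about 5% of such sets, but sparse counts do not meet the assumptions of the test: 9 of the 12 are 1 or 2 counts in a library whose group was otherwise at 0. These are MT1E in MEIS2-KO replicate 2 (0.101 CPM, 2 counts), and 1 count each of MT1F in ctrl-KO replicate 3 (0.0589 CPM) and MEIS2-KO replicate 5 (0.0504), of MT1G in MEIS1-OE replicate 4 (0.0454), ctrl-KO replicate 4 (0.0524) and MEIS1-KO replicate 6 (0.0513), of MT1M in MEIS1-OE replicate 4 (0.0454) and MEIS2-OE replicate 2 (0.0465), and of MT3 in MEIS1-OE replicate 1 (0.0507).

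MT1F in MEIS1-OE replicate 3 reached 0.201 CPM (4 counts), against 0.0992 for the next library. In ctrl-OE replicate 6, MT1X reached 1.45 CPM, against 1.09 for the next library, and MT2A reached 4.64 CPM, against 3.27, so the highest values of both genes came from the same library. Without that library, MT1X in ctrl-OE against ctrl-KO still passed, as it did without any other single library of the comparison (log2(fold change) 1.12 to 1.47).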

How the results depend on the processing

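The number of members that passed was the same with RLE size factors, no filter on low counts among the 4 members tested, only the groups compared and the replicate block in all 11 comparisons. With no filter, MT3 passed as well in ctrl-OE against ctrl-KO. With DESeq2 the number changed in 1 comparison, from 3 to 2 in MEIS1-OE against MEIS1-KO. With filterByExpr it fell from 3 to 1 in ctrl-OE against ctrl-KO, MEIS1-OE against MEIS1-KO and MEIS2-OE against MEIS2-KO, because that filter removes MT1E and MT1F. Replicate numbers were not shown to pair the libraries, and with replicate number as a block MT1X in MEIS1-OE against ctrl-OE had a log2(fold change) of 0.61 (edgeR adjusted p = 0.033). Leaving out 1 library at a time, between 0 and 1 members passed in MEIS1-OE against ctrl-OE, between 2 and 3 in MEIS1-OE against MEIS1-KO, and 3 throughout in ctrl-OE against ctrl-KO and MEIS2-OE against MEIS2-KO. MT1E in the MEIS1 contrast turned from 0.83 to -0.45 with a prior count of 2 and to -0.25 with DESeq2, as it rests on 0 counts in MEIS1-KO.

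Other turns of direction came with 1 library left out and concern values that did not pass, given here as ranges of log2(fold change). MT1F ran from -0.37 to 0.21 in MEIS1-OE and from -0.074 to 0.67 in MEIS2-OE, both against ctrl-OE, and MT2A from -0.065 to 0.15 in MEIS2-OE against ctrl-OE. Against ctrl-KO, MT2A ran from -0.23 to 0.091 in MEIS1-KO, and in MEIS2-KO MT1E ran from -1.95 to 0.47, MT1F from -1.29 to 1.25, MT1X from -0.30 to 0.079 and MT2A from -0.0071 to 0.15. In the MEIS2 contrast MT1E ran from -0.88 to 1.55, MT1F from -0.88 to 1.65 and MT2A from -0.12 to 0.10. MT2A ran from -0.015 to 0.18 in MEIS1-OE against MEIS2-OE, from -0.28 to 0.044 in MEIS1-KO against MEIS2-KO and from -0.24 to 0.079 in MEIS1-OE against MEIS1-KO, and MT1X from -0.30 to 0.074 in MEIS1-KO against MEIS2-KO. Depth limits the values of MT1E and MT1F in the knockout conditions, where at most 2 counts per condition were found, and all values of MT1G, MT1M and MT3.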
